A study of Mus musculus with 12 samples.

Results

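The macrophages described here carried the genotype that the labels call Itga9-Lyz2-cKO, shortened to cKO, and were compared after 2 hours with Pg and without it. All 6 cKO libraries of the series' 12 were used, 3 stimulated and 3 control, and the response was read across 13800 genes that passed a filter on low counts. Cells were grown from the marrow of 8-week-old male mice with 50 ng/mL of macrophage colony-stimulating factor (M-CSF), which turns marrow precursors into macrophages. Stimulated cultures received an agent that the labels name only as Pg, at a multiplicity of infection of 1:20. The other 6 libraries came from Itga9-Lyz2-cHet macrophages (cHet), grown and treated in the same way, and serve for comparison. Lyz2, the macrophage lysozyme gene, drives Cre recombinase in myeloid cells of Lyz2-Cre mice, so any deletion of that kind is limited to cells that use this promoter. Itga9 encodes the alpha chain of the adhesion receptor integrin alpha9beta1, and the study, by its title, concerns inflammation of the gums and loss of the bone around the teeth. No label tells if a group's 3 libraries are 3 animals, 3 cultures or repeats of 1 preparation; p-values then measure only their spread, possibly a technical one.

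Macrophages sense bacterial products through Toll-like receptors and related sensors, which switch on the transcription factors NF-kB and AP-1 and the MAP kinase cascades. The first wave of mRNAs made in this way includes transcription factors, cytokines and chemokines, together with the phosphatases, inhibitors and mRNA decay proteins that later turn the response down. Many of these mRNAs are short-lived because their 3′ untranslated regions (UTRs) hold AU-rich sites that decay proteins of the ZFP36 family bind. Interferon-stimulated genes form another programme, switched on by interferons through a promoter motif called the interferon-stimulated response element (ISRE).

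The sequences that follow were chosen to show both kinds of control element beside the genes that moved most. They are the RefSeq promoters (build GRCm38.p6, 250 bases before to 50 after the start) of the protein-coding genes with the largest rises and the largest falls that held a searched motif, with the motif in capitals. Motifs were searched on both strands, and a match is a description of letters, not a bound site. The motifs were NF-kB (GGG, any 2 bases, TT, any base, CC), AP-1 (TGANTCA), the cAMP response element (TGACGTCA), the ISRE (GAAA and GAAA with any 2 bases between), the antioxidant response element (TGAC and GCA with any 3 bases between), which can overlap AP-1, the E-box (CACGTG) and the CArG box. Ptgs2 (inducible cyclooxygenase, chr1:150099781-150100080, plus strand) held an E-box after its start. Cxcl1 (a neutrophil-attracting chemokine, chr5:90890995-90891294, plus strand) held NF-kB motifs 71 and 89 bases before the start. Ifit1 (an interferon-induced antiviral gene, chr19:34640639-34640938, plus strand) held ISREs 85 and 104 bases before the start and an NF-kB motif 159 bases before it. Tgtp2 (an interferon-inducible GTPase, chr11:49064163-49064462, minus strand) held an ISRE 70 bases before the start.
Ptgs2: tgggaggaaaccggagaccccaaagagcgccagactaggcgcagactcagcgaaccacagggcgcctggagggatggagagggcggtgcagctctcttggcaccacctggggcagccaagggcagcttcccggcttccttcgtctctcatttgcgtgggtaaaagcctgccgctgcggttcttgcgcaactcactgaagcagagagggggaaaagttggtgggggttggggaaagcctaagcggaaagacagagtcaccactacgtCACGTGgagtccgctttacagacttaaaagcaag
Cxcl1: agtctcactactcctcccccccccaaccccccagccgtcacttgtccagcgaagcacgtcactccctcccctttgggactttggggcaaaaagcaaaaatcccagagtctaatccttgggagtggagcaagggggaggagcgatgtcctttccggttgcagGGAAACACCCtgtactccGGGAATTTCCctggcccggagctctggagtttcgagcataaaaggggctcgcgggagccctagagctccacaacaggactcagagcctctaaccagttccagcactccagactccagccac
Ifit1: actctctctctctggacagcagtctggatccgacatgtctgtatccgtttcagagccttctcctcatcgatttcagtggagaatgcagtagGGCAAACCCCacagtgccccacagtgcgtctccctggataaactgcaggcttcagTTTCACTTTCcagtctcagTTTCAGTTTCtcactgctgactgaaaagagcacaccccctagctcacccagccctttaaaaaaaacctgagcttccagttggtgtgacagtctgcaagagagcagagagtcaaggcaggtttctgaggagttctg
Tgtp2: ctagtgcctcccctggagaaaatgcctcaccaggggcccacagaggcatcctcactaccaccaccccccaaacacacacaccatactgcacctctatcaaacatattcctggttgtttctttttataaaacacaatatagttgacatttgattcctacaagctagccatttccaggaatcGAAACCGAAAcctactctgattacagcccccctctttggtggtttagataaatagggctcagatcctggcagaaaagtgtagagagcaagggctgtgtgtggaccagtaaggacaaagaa

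Stretches of 29 bases from the 3′ UTRs of induced genes are shown next, as DNA letters of the GENCODE vM21 transcripts (GRCm38), with every copy of the AU-rich heptamer TATTTAT in capitals. Il10 and Lif, also among the largest rises, held 4 and 5 copies but only 1 and 2 in their densest stretch, and are not shown. Cxcl2 held 7 copies in its whole 3′ UTR, Cxcl1 6, Ptgs2 6 and Clcf1, a cytokine of the interleukin 6 family, 4. The stretches lie at chr5:90905325-90905353, chr5:90892604-90892632, chr1:150105783-150105811 and chr19:4223404-4223432, all on the plus strand.
Cxcl2: ctTATTTATTTATctatgTATTTATTTAT
Cxcl1: gggtccTATTTATTTATgTATTTATTTAT
Ptgs2: aagtctactgaccaTATTTATTTATTTAT
Clcf1: aTATTTATTTATttggagatgtTATTTAT

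Library totals lay between 14527674 and 15987209 counts in the 6 cKO libraries. Itga9 was lower in cKO than in cHet but not absent. It held 32.3, 17.9 and 18.9 CPM in cHet controls, 19.4, 34.0 and 33.4 CPM in cHet with Pg, 11.5, 5.98 and 6.42 CPM in cKO controls and 13.6, 11.6 and 7.84 CPM in cKO with Pg. The cKO and cHet libraries did not overlap. The difference passed in controls (-1.53 ± 0.37, adjusted p 0.0497) and not with Pg (-1.39 ± 0.36, adjusted p 0.125), and the response of Itga9 to Pg within cKO did not pass (0.46 ± 0.39, adjusted p 0.417). Counts cover the whole gene, so reads from a deleted part and from the rest are not separated. Macrophage markers were abundant in all 6 cKO libraries: the summed level of 14 markers lay between 20140.0 and 23440.0 CPM in controls and 23030.0 and 26520.0 CPM with Pg, and 6 of the 14 rose. The summed levels of other lineages were far lower. Neutrophil markers lay between 643 and 805 CPM in controls and 697 and 1014 CPM with Pg. Monocyte markers lay between 309 and 315 CPM and between 308 and 381 CPM, and dendritic cell markers between 145 and 147 CPM and between 127 and 154 CPM, where 3 of 9 tested rose. T and NK, B and plasma, mast and erythroid markers each summed to less. Stromal markers lay between 4.49 and 5.84 CPM in controls and 6.90 and 10.2 CPM with Pg, and 2 of 9 rose; their part in the results was not tested. In bulk samples fewer cells of a type and less RNA per cell cannot be told apart.

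Libraries of 1 group were not alike. Itgax, which encodes the integrin chain CD11c, stood at 125, 42.4 and 45.1 CPM in controls 1 to 3 and at 103, 121 and 48.0 CPM in Pg libraries 1 to 3. Control 1 and Pg libraries 1 and 2 were therefore high and the other 3 low, with no overlap between them. Itga9 itself, the scavenger receptor gene Cd36 and the elastase gene Mmp12 were also higher in control 1 than in the other controls and higher in Pg libraries 1 and 2 than in Pg library 3. Itgax, Cd36 and Mmp12 were singled out after their values were seen. Because 1 control but 2 Pg libraries were high, the imbalance touches every comparison below. With a term for this state, added after the data were seen, 4645 of the 4687 genes called in cKO were called in the same direction, and 1138 of the 1150 called at 2-fold or more. The term itself passed for 2343 of the 13800 genes over the 12 libraries, so the state was not confined to the genes named here.

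Pg changed 4687 of the 13800 genes in cKO macrophages at an adjusted p under 0.05 (34%). Of these, 2328 were higher (16.9%) and 2359 lower (17.1%), with a median log2 change of all genes at 0.00. At 2-fold or more, 1150 genes passed (8.33%), of which 672 were higher (4.87%) and 478 lower (3.46%). With library size scaling those counts were 470 and 963, so the excess of rises at 2-fold turned round. By 4-fold or more 211 genes rose and 66 fell, or 173 and 105 with library size scaling. Genes that rose by at least 2-fold took 3.95% to 4.06% of all counts in the controls and 10.8% to 11.5% with Pg, whereas those that fell took 0.849% to 0.967% in the controls and 0.256% to 0.282% with Pg. Fold changes are relative to the TMM scaling (trimmed mean of M-values). Scaling by library size alone lowered the median change of all genes by 0.25 on the log2 scale and reduced the share of rises among the calls from 49.7% to 18.7%. List counts under that scaling are given wherever they no longer hold more rises than falls.

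**Figure D1:**
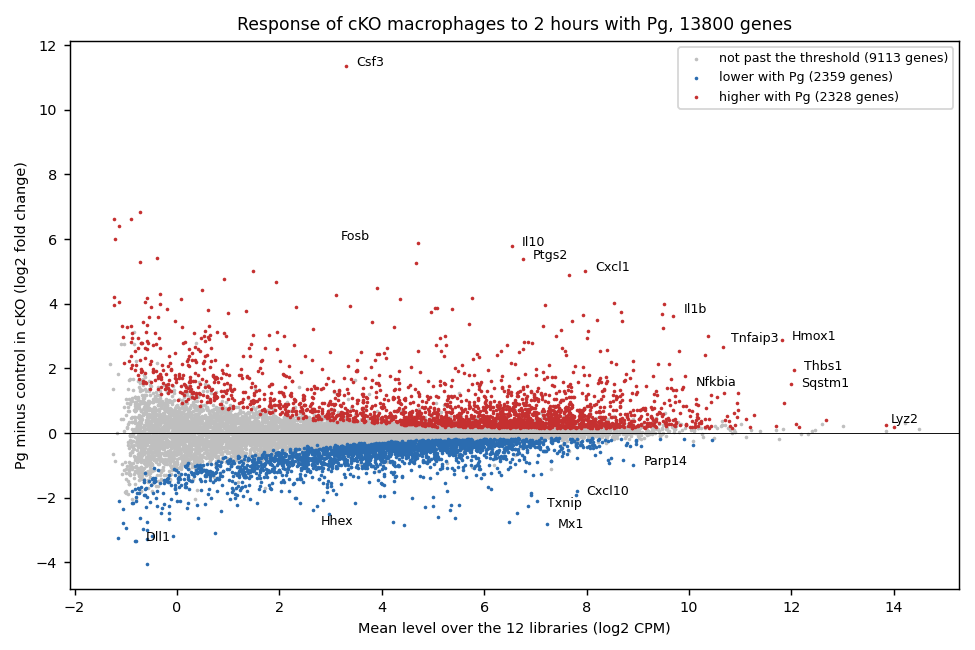
Log2 fold change of Pg against control in cKO (vertical) against the mean log2 CPM over the 12 libraries (horizontal) for 13800 genes, coloured by call. At this scaling 211 genes rose and 66 fell by 4-fold or more, and Csf3, with no count in the controls, lies at the top.

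Cytokine genes were among those with the largest rises. Il10, the anti-inflammatory cytokine, held 3.99, 3.05 and 3.15 CPM in controls and 184, 199.5 and 185 CPM with Pg, a log2 change of 5.80 ± 0.13 (adjusted p 2.81e-14). The 3 Pg libraries lay close together and far above every control. Il1a, an interleukin 1 cytokine, rose from 16.6, 12.7 and 9.11 to 419, 402 and 310.0 CPM (4.88 ± 0.33). Il1b, the other main interleukin 1 cytokine, rose from 112, 138 and 120.4 to 1411, 1506 and 1657 CPM (3.63 ± 0.09). Il1rn, which encodes the antagonist of their receptor, rose with them from 95.3, 60.1 and 56.4 to 704, 706 and 925 CPM (3.46 ± 0.27). Il6 was near zero in controls at 0.416, 0.0623 and 0.234 CPM and reached 4.98, 6.26 and 7.84 CPM (4.68 ± 0.38). The TNF superfamily ligands Tnfsf9, Tnfsf14 and Tnfsf4, which costimulate T cells, rose by 3.66, 3.85 and 3.82 on the log2 scale, the scale of every change given below unless a fold is named, with ± for the standard error. Of 20 tested inflammatory cytokine genes 13 rose and the other 7 did not pass, with a median change of 1.83. Tnf, named after its values were seen, rose from 326, 273 and 241 to 1507, 1273 and 901 CPM (2.13 ± 0.25, adjusted p 0.000179).

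Colony-stimulating and other growth factor genes rose, some of them from very low levels. Csf3, which encodes the granulocyte colony-stimulating factor, had 0 counts in all 3 controls and 280, 289 and 347 counts with Pg, at least 351-fold higher against a floor of 3 counts over the control group. Csf2, the granulocyte-macrophage factor, had 0 counts in the controls and 19, 7 and 3 with Pg, at least 11.1-fold higher over the same floor, and its Pg libraries differed widely. These bounds cover counting error only. Hbegf and Areg, ligands of the EGF receptor, rose as well: Hbegf held 1.61, 1.81 and 0.350 CPM in controls and 27.9, 28.3 and 27.8 CPM with Pg (4.48 ± 0.30), and Areg had 3 counts in the controls together and 35 with Pg (ratio 13.4, 95% counting interval 4.23 to 68.2). The cytokine gene Lif rose from 0.655, 0.311 and 0.759 to 12.2, 9.53 and 4.54 CPM (3.90 ± 0.68), with a wide spread between Pg libraries. Clcf1, whose AU-rich stretch is shown above, rose from 5.95, 2.68 and 2.39 to 51.0, 52.4 and 46.2 CPM (3.76 ± 0.37). Gdf15, a stress-induced cytokine, was high in Pg libraries 1 and 2 (1009, 754 and 415 CPM, against 60.04, 43.2 and 32.1 CPM in controls; 4.01 ± 0.48). Csf1, the gene of M-CSF itself, rose by 1.29. Of 25 growth factor genes 15 rose and the other 10 did not pass (median 1.29).

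Chemokine genes split by kind. Those that attract neutrophils rose. Cxcl1, whose promoter holds the NF-kB motifs shown above, went from 10.2, 9.47 and 8.93 to 336, 337 and 261 CPM (5.03 ± 0.16). Cxcl2 went from 98.7, 89.2 and 81.0 to 1459, 1495 and 1346 CPM (3.999 ± 0.15). Cxcl3 went from 4.403, 5.79 and 4.38 to 83.4, 85.6 and 97.2 CPM (4.19 ± 0.12). Control and Pg libraries were far apart in all 3 genes. The interferon-induced T cell attractants fell. Cxcl10 held 463, 280.1 and 299 CPM in controls and 110.1, 89.1 and 75.9 CPM with Pg (-1.92 ± 0.30, adjusted p 0.00114). Cxcl9 fell from 2.50, 0.872 and 0.992 to 0.672, 0.0711 and 0.206 CPM (-2.16 ± 0.59). In both, control 1 was the highest library, and without it the fall of Cxcl9 was -1.52 and no longer passed. Both sets lie on chromosome 5 of mm10, Cxcl2 from 90903871 to 90905938 and Cxcl10 from 92346638 to 92348889. Of 12 CXC chemokine genes 4 rose and 2 fell (median 0.48), and 4 and 4 with library size scaling. The falls were 16.7% of that list, close to the 17.1% of all genes, and the rises 33.3% against 16.9%. Among CC chemokines, 6 of 12 rose and 1 fell (median 0.94): the monocyte attractants Ccl2 and Ccl7 rose by 3.15 and 3.31, and Ccl3, Ccl4, Ccl9 and Ccl24 by 2.23, 1.70, 1.41 and 1.73. Ccl12 fell (-0.85 ± 0.29, adjusted p 0.045), a call lost without any single cKO library (-0.98 to -0.64).

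Lipid mediator genes rose too. Ptgs2, the inducible cyclooxygenase that starts prostaglandin synthesis, held 4.94, 5.05 and 5.19 CPM in controls and 181, 202 and 254 CPM with Pg (5.39 ± 0.14, adjusted p 1.15e-12). Ptges, the prostaglandin E synthase downstream of it, rose by 1.38. Sphk1, the kinase that makes sphingosine 1-phosphate, rose from 2.08, 0.872 and 0.875 to 42.2, 43.4 and 61.0 CPM (5.25 ± 0.29), and Plpp3, a lipid phosphatase, by 1.597. Of 23 genes in the list 10 rose and the other 13 did not pass (median 0.25), and 6 rose and 3 fell with library size scaling.

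**Figure D2:**
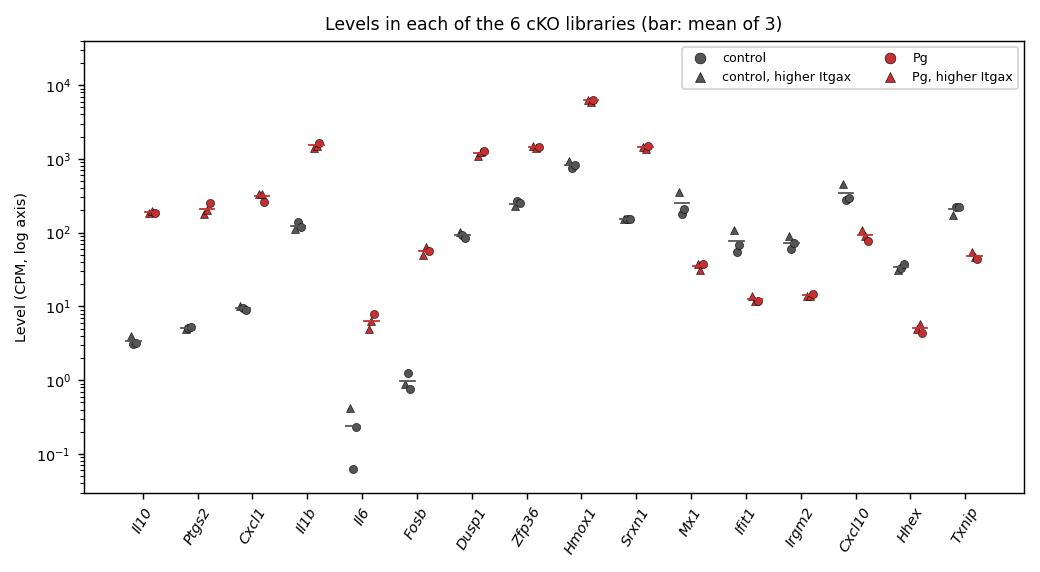
Level in CPM (log axis) of 16 genes in each of the 6 cKO libraries, controls in grey and Pg in red, with bars at the mean of 3 and triangles for the 3 libraries with higher Itgax. Control and Pg libraries do not overlap for any of the 16 (45.1% of all genes tested do not), and the highest control of Mx1, Ifit1 and Cxcl10 is the Itgax-high one.

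Receptor genes moved in both directions. The co-receptor gene Cd14, which hands bacterial lipids to Toll-like receptors, rose from 764, 1049 and 1172 to 2062, 2217 and 2697 CPM (1.22 ± 0.20). Tlr4, the lipopolysaccharide receptor gene, fell from 57.2, 58.1 and 55.8 to 36.6, 39.2 and 46.7 CPM (-0.48 ± 0.08). Their adaptor gene Ticam1 and the kinase gene Ripk2, which acts below the NOD receptors, rose by 1.56 and 1.01. Of 24 Toll-like receptor and adaptor genes 11 rose and 4 fell (median 0.19), which became 3 and 9 with library size scaling. The falls were 16.7% of that list, close to the 17.1% of all genes. The interleukin 1 receptor genes Il1r1 and Il1r2, a signalling receptor and a decoy, rose by 2.22 and 1.35, and Il10ra, the receptor for the induced Il10, fell from 285, 299 and 293 to 209.9, 217 and 211 CPM (-0.46 ± 0.06). Cytokine and growth factor receptors gave 18 rises and 4 falls of 51 (median 0.15), or 15 and 14 with library size scaling. The falls were 7.84% of that list, fewer than the 17.1% of all genes, and the rises 35.3% against 16.9%.

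Adenosine and nucleotide receptor genes showed the same split. Adora2a and Adora2b, receptors that raise cAMP in response to adenosine, rose by 1.47 and 1.95, and P2ry2, a receptor for extracellular ATP and UTP, from 80.8, 71.3 and 71.3 to 239.8, 245 and 252 CPM (1.72 ± 0.10). P2ry13 and P2rx7, further nucleotide receptors, fell by 1.02 and 0.31 on the log2 scale. Of 21 genes in that list 6 rose and 3 fell (median 0.21), or 5 and 6 with library size scaling. The falls were 14.3% of the list, against 17.1% of all genes. Among the phagocytic receptors, Olr1, which takes up oxidised lipoprotein, rose from 41.9, 21.8 and 20.5 to 222, 209.8 and 159 CPM (2.81 ± 0.41), and was highest in the Itgax-high library among controls. Its change was 2.61 with the term for that state. The lectin receptor genes Clec4e and Clec4d rose by 0.95 and 0.77 and Trem1, an amplifier of inflammation, by 1.68. Cd86, Cd80 and Cd40, which costimulate T cells, and the checkpoint ligand gene Cd274 had changes of 1.27, 1.41, 0.81 and 1.34. Of 28 genes in the list of MHC class II and antigen presentation 9 rose and 6 fell (median 0.14), or 7 and 9 with library size scaling.

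NF-kB genes rose in most cases. Tnfaip3, the ubiquitin-editing enzyme A20, held 419.8, 412 and 396 CPM in controls and 2358, 2593 and 2765 CPM with Pg (2.65 ± 0.07, adjusted p 2.47e-14). The inhibitor genes Nfkbia and Nfkbib rose by 1.76 and 1.21, and Nfkbid and Nfkbiz, atypical nuclear members of the same family, by 1.42 and 2.13. The subunit gene Rel rose from 182, 181 and 177 to 401, 405 and 383 CPM (1.14 ± 0.06). Of 30 NF-kB genes 19 rose and 1 fell (median 0.33). Socs3, an inhibitor of cytokine receptor signalling, rose from 243, 287 and 280.5 to 1896, 2064 and 2551 CPM (3.01 ± 0.12), and Cish, of the same family, by 2.71.

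MAP kinase phosphatases rose as a group, with 1 clear exception. Dusp1, which inactivates p38 and JNK in the nucleus, held 104, 91.7 and 83.5 CPM in controls and 1094, 1227 and 1276 CPM with Pg (3.69 ± 0.09, adjusted p 1.26e-14). Dusp2, another nuclear phosphatase, rose from 41.2, 28.97 and 26.1 to 330.3, 331 and 396 CPM (3.46 ± 0.17), and Dusp5, which acts on ERK in the nucleus, by 3.96. Dusp6, a phosphatase of ERK in the cytoplasm, fell from 26.7, 20.5 and 21.3 to 8.54, 3.77 and 5.30 CPM (-1.95 ± 0.21). Errfi1 and Spred2, inhibitors of EGF receptor and Ras signalling, rose by 3.74 and 1.03. Of 23 phosphatase and Ras inhibitor genes 18 rose and 2 fell (median 0.81). The kinase genes themselves moved less: of 31, 14 rose and 4 fell (median 0.13), or 8 and 12 with library size scaling, with Map2k3, which activates p38, at 1.59.

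Transcription factor genes of the immediate early class rose in most cases. Fosb held 0.893, 1.25 and 0.759 CPM in controls and 50.4, 63.5 and 57.2 CPM with Pg (5.88 ± 0.32). Fosl1, its relative, rose from 0.893, 1.12 and 0.759 to 18.8, 19.2 and 16.0 CPM (4.28 ± 0.18). Egr3 and the nuclear receptor gene Nr4a3 rose by 2.78 and 3.86, and Myc from 20.1, 17.7 and 18.1 to 86.1, 90.3 and 94.9 CPM (2.28 ± 0.08). Of 24 members 20 rose and 1 fell (median 1.77). The AP-1 genes Fos and Jun, singled out after their values were seen, did not rise. Fos, whose sign turned in the Itgax-low libraries alone (-0.45), stood at 63.8, 56.5 and 51.0 CPM in controls and 69.7, 71.0 and 39.3 CPM with Pg (0.07 ± 0.28, adjusted p 0.881), and its groups overlapped. Jun fell from 259.6, 263 and 248 to 168, 165 and 115 CPM (-0.78 ± 0.15, adjusted p 0.00203). Among the other AP-1 relatives, Fosl2, Junb, Jdp2 and Maff rose by 2.04, 1.36, 1.88 and 2.09.

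Larger families of transcription factors, as the deposited annotation names them, moved in opposite directions. Of 44 tested bZIP genes, the family of AP-1, ATF and MAF, 23 rose and 8 fell (median 0.43), or 22 rose and 13 fell with library size scaling. Of 19 ETS genes 9 rose and the other 10 did not pass, or 4 rose and 6 fell with library size scaling, with Ets2 and Etv3 at 1.15 and 1.38. C2H2 zinc finger genes, a large family of DNA-binding proteins, fell in many cases: of 387 tested, 41 rose and 186 fell, 77 of them by at least 2-fold, with a median of -0.51 and an interquartile range of -0.95 to -0.08. Falls made up 48.1% of that family against 17.1% of all genes. With library size scaling 30 rose and 249 fell. In cHet, where 36.1% of all genes were called (18% higher and 18% lower), 40 rose and 155 fell (median -0.39). In edgeR's test of a difference between the genotypes' responses, which 0.717% of all genes passed, 0 of the 387 passed, with 60 at an unadjusted p under 0.05 and 10 passing by DESeq2. Of all 13800 genes, 1742 had an unadjusted p under 0.05 in edgeR's test. By DESeq2, 146 of all genes passed with a higher and 113 with a lower change. The 5 with the largest falls among those above a mean of 1 log2 CPM, picked after their values were seen, were Sall2, Zfp707, 2610008E11Rik, Zfp316 and 9130023H24Rik. Zfp316, for example, fell from 9.82, 12.5 and 11.03 to 3.90, 2.70 and 3.78 CPM (-1.68 ± 0.19). Macrophage lineage factors were mixed: of 57, 30 rose and 7 fell (median 0.36). Irf4, Nfil3 and Prdm1 rose by 2.49, 2.53 and 1.497, whereas Hhex, a homeobox factor, fell from 31.0, 33.1 and 37.7 to 4.91, 5.83 and 4.403 CPM (-2.75 ± 0.14, adjusted p 7.46e-11) and Maf by 0.85 on the log2 scale.

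Genes that control mRNA decay rose in part. Zfp36, which encodes the AU-rich element binding protein tristetraprolin, held 228, 266 and 252 CPM in controls and 1476, 1409 and 1469 CPM with Pg (2.55 ± 0.08). Zc3h12a, the nuclease Regnase-1, and its relative Zc3h12c rose by 1.80 and 1.03, and Zfp36l1 by 1.16. In the other direction, Tent5a, a poly(A) polymerase, fell from 90.3, 72.2 and 77.7 to 18.4, 15.5 and 17.4 CPM (-2.23 ± 0.10). Of 22 list members 11 rose and 6 fell (median 0.29).

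AU-rich sites and short genes marked the largest rises. Of protein-coding genes with a 3′ UTR in GENCODE vM21, TATTTAT was present in 27.5% of all tested, in 50.3% (81 of 161) of those that rose by 4-fold or more and in 17.4% (8 of 46) of those that fell as much. At least 3 copies were held by 3.38%, 16.8% and 2.17%. The density per kb of 3′ UTR was 0.291, 0.914 and 0.2, and the median 3′ UTR lengths were 954, 977 and 1178 bases. Genes of both large classes were short. The median span was 23.6 kb for all tested, 11 kb for rises and 10.7 kb for falls of 4-fold or more, with a median of 8, 4 and 3 exons. Genes that rose by less than 2-fold were longer, at 34.1 kb. These are descriptions of gene classes cut from the same response, without a test.

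Promoter motifs differed between the same classes. Windows were matched for 9846 of the tested genes, protein-coding or not. AP-1 motifs occurred in 5.18% of all, in 23.3% (30 of 129) of the rises of 4-fold or more and in 10.3% (4 of 39) of the falls of that size. NF-kB motifs occurred in 5.43%, 11.6% (15 of 129) and 10.3% (4 of 39). ISREs stood out among falls: 3.28% of all, 5.43% (7 of 129) of the large rises, 17.9% (7 of 39) of the large falls and 9.15% (26 of 284) of the falls of 2- to 4-fold. Antioxidant response elements were held by 2.72% of all and 5.02% (15 of 299) of the rises of 2- to 4-fold. The counts in the classes of large falls are small.

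**Figure D3:**
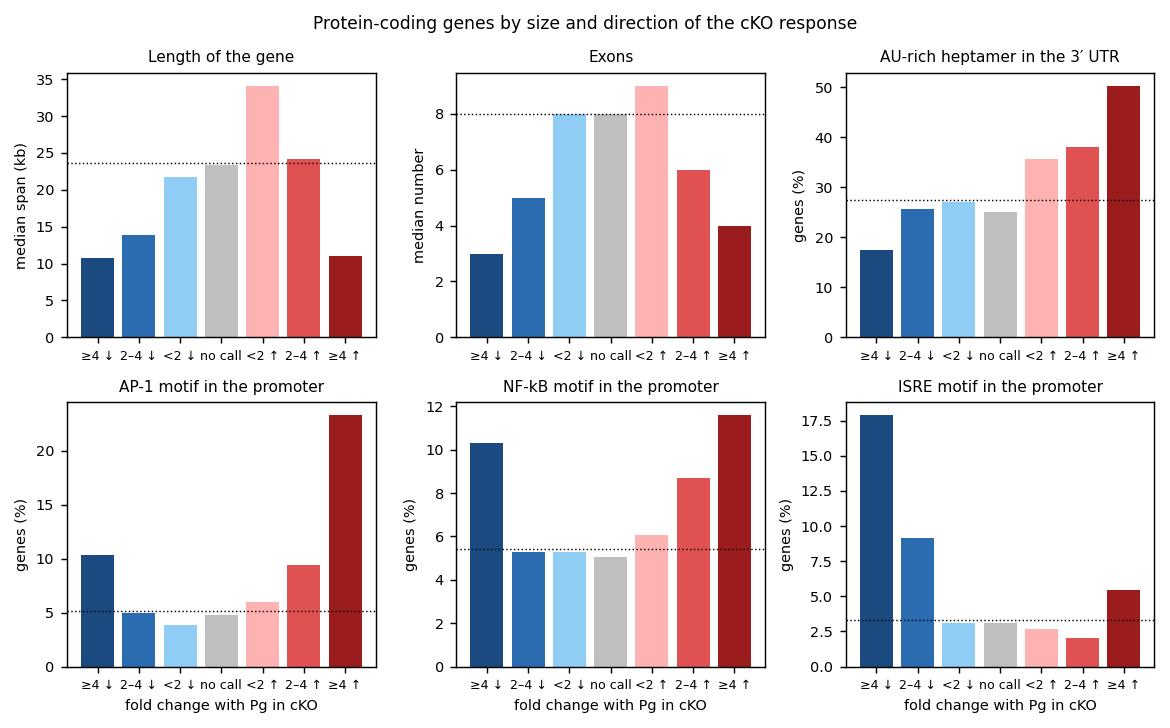
Median gene span in kb, median number of exons and percentage with the AU-rich heptamer are for protein-coding genes. Percentages with AP-1, NF-kB and ISRE motifs are, despite the title, for all genes with a matched promoter. The 7 classes of the cKO response run from falls of 4-fold or more (left) to rises of 4-fold or more (right). The value of all tested genes is dotted. Span and exon number are low at both ends, the heptamer reaches 50.3% and AP-1 23.3% in the largest rises, and the ISRE 17.9% in the largest falls.

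Most antioxidant genes rose. Srxn1, which repairs oxidised peroxiredoxins, held 153, 153 and 155 CPM in controls and 1447, 1375 and 1519 CPM with Pg (3.24 ± 0.08, adjusted p 1.26e-14). Hmox1, the haem-degrading enzyme, rose from 928, 759 and 831 to 6319, 5971 and 6380.0 CPM (2.89 ± 0.12), and Txnrd1, thioredoxin reductase, from 431, 397 and 407 to 2121, 2119 and 2294 CPM (2.40 ± 0.07). Slc7a11, the cystine importer, rose by 3.49, and Gclm and Gclc, the subunits of the enzyme that starts glutathione synthesis, by 1.44 and 1.30. The autophagy receptor gene Sqstm1 rose from 2051, 2023 and 2225 to 6116, 5958 and 6092 CPM, among the largest gains in abundance. The ferritin genes Fth1 and Ftl1 rose by 0.26 and 0.41, small changes of abundant mRNAs that no longer passed with library size scaling (0.01 and 0.16). Of 34 NRF2 and antioxidant genes 26 rose and 2 fell (median 0.39). Within the heat shock and unfolded protein list 21 of 36 rose and 3 fell (median 0.29), with the chaperone genes Dnajb4 and Hspa1a at 2.49 and 1.97. Hspa1a has a near-identical copy, Hspa1b, so its reads are uncertain. Ddit4, an inhibitor of the growth kinase mTORC1, rose by 1.70.

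Among metabolic genes, Slc2a1, the glucose transporter, rose from 79.8, 76.0 and 88.8 to 173, 164 and 192 CPM (1.12 ± 0.08), and Hk2 and Pfkfb3, which phosphorylate glucose and set the rate of glycolysis, by 0.96 and 1.64. Hif1a, the hypoxia factor, rose by 0.84. Of 36 glycolysis and hypoxia genes 12 rose and 2 fell (median 0.14), or 8 and 8 with library size scaling. Odc1, which starts polyamine synthesis, rose from 145, 133 and 149 to 578, 618 and 693 CPM (2.14 ± 0.11), and Gch1, needed for the cofactor of nitric oxide synthases, by 0.91. Nos2, the inducible nitric oxide synthase, fell from 2.86, 2.87 and 3.33 to 1.14, 1.42 and 2.06 CPM (-0.97 ± 0.34, adjusted p 0.0353), a low level in both groups. Without control 1, 2 or 3 or Pg library 1 or 2 the call was lost (-1.0 to -0.79).

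Genes of the cell surface and matrix rose with the cytokines. Thbs1, the adhesive matrix protein thrombospondin 1, went from 1493, 2043 and 2137 to 6065, 7146 and 8805 CPM (1.96 ± 0.18), the lowest Pg library being number 1. Plaur, the urokinase receptor, rose from 72.3, 58.3 and 56.4 to 344, 334 and 318 CPM (2.41 ± 0.13), while Serpinb2, an inhibitor of plasminogen activators, rose by 3.93. Mmp13, a collagenase, rose from 24.3, 18.2 and 17.7 to 114, 104 and 106 CPM (2.43 ± 0.14), and Timp1, an inhibitor of such enzymes, by 3.01. Of 31 genes in the matrix protease and plasminogen list 15 rose and 2 fell (median 0.47). The integrin genes Itga5 and Itgav rose by 0.99 and 1.29, and Itgal fell by 0.58 on the log2 scale. Of 44 integrin and focal adhesion genes 16 rose and 4 fell (median 0.26), or 8 and 8 with library size scaling. Among osteoclast genes, 8 of 20 rose and 3 fell (median 0.24). Acp5, the tartrate-resistant phosphatase, rose from 60.3, 24.4 and 20.1 to 142, 135 and 80.6 CPM (1.77 ± 0.51, adjusted p 0.0271). It was highest in the Itgax-high library among controls, and its change was 1.52 with the term for that state. Without control 2 or 3 or Pg library 1 or 2 it lay between 1.49 and 1.67 and did not pass. Met, the receptor for hepatocyte growth factor, showed the same order, from 16.4, 6.36 and 5.84 to 39.2, 35.7 and 32.0 CPM (1.90 ± 0.52, and 1.70 with the term), and without the same libraries it lay between 1.64 and 1.9 and did not pass.

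Survival and death genes of the BCL2 family moved both ways. Bcl2a1d, an inhibitor of apoptosis, and Cflar, an inhibitor of caspase 8, rose by 1.52 and 1.33. The death-promoting genes Pmaip1 and Bcl2l11 rose by 1.51 and 1.23, while others of the same BH3-only kind fell. Bbc3 went from 17.02, 24.8 and 22.2 to 7.33, 7.33 and 6.47 CPM (-1.599 ± 0.15). Bmf went from 7.14, 11.96 and 8.52 to 2.62, 1.78 and 2.13 CPM (-2.07 ± 0.24). In all, 14 of 35 rose and 6 fell (median 0.21), or 11 and 11 with library size scaling. Falls thus made up 17.1% of the list, the same share as of all genes (17.1%), and rises 40.0% against 16.9%. Bcl2a1d belongs to a cluster of near-identical copies, so its share of reads is uncertain. Mdm2, the inhibitor of p53, rose from 268, 258 and 292 to 838, 965 and 1006 CPM (1.78 ± 0.08).

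Interferon-stimulated genes fell together. Mx1, an antiviral GTPase, held 360.1, 178 and 211 CPM in controls and 37.0, 31.4 and 37.1 CPM with Pg (-2.83 ± 0.36, adjusted p 0.000382). Ifit1, whose promoter holds the ISREs shown above, fell from 110.1, 54.95 and 68.7 to 13.7, 12.02 and 11.9 CPM (-2.63 ± 0.27). Ifit2 fell from 281, 134 and 161 to 46.0, 35.9 and 39.0 CPM (-2.25 ± 0.37). Control 1, an Itgax-high library, was the highest in all 3, yet the lowest control was still above the highest Pg library. Cmpk2 and Rsad2, antiviral enzymes, fell by 2.75 and 1.79 on the log2 scale. Of 45 tested interferon-stimulated genes 34 fell and 2 rose, with a median of -0.89 against 0.00 for all genes. With the term for the Itgax state the change of Mx1 was -2.96 and that of Ifit1 -2.77, and Mx1 changed by -3.40 within the high and -2.38 within the low libraries. Irf1, named after its values were seen, was among those that rose, from 496, 414 and 392 to 876, 830.3 and 781 CPM (0.93 ± 0.09). Ifnb1, the interferon beta gene, also picked in that way, stood at 0.416, 0.187 and 0.350 CPM in controls and 0.807, 0.711 and 0.206 CPM with Pg (0.83 ± 0.63, adjusted p 0.343).

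The interferon-inducible GTPases, which attack the vacuoles of intracellular microbes, went the same way. Of 16, 13 fell and the other 3 did not pass (median -1.06). Irgm2 fell from 89.8, 59.1 and 71.7 to 13.7, 13.9 and 14.9 CPM (-2.38 ± 0.15), Tgtp2 from 19.6, 12.4 and 14.2 to 2.42, 2.35 and 3.30 CPM (-2.52 ± 0.25) and Iigp1 by 2.18 on the log2 scale. Irgm1, Igtp and Gbp3 fell by 1.73, 1.36 and 1.08. Igtp overlaps Irgm2 on the same strand, and Tgtp1 and Tgtp2 are near-identical, so their reads cannot be fully told apart. The ubiquitin and ADP-ribosylation genes Parp14, Parp9, Dtx3l and Trim21 fell by 0.99, 1.11, 1.28 and 1.35, of which Parp9 and Dtx3l overlap on the genome. Tap1, which loads peptides on MHC class I, fell by 0.79.

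Another set of falls held genes that restrain growth or are targets of FOXO factors. Txnip, an inhibitor of glucose uptake and of thioredoxin, fell from 173, 222 and 224 to 54.0, 46.8 and 44.4 CPM (-2.09 ± 0.13), and the related arrestin genes Arrdc3 and Arrdc2 by 2.27 and 1.48 on the log2 scale. Sesn1, an inhibitor of mTORC1, fell from 166, 192 and 188 to 50.4, 50.4 and 45.0 CPM (-1.90 ± 0.09, adjusted p 4.96e-11). Pik3ip1, an inhibitor of PI3 kinase, and Ulk1, which starts autophagy, fell by 1.55 and 0.64. Of 31 genes in the list 14 fell and 8 rose (median -0.15). Of 24 KLF and zinc finger repressor genes 10 rose and 4 fell (median 0.28), with Klf4 and Klf6 at 1.22 and 1.31. Other large falls were Enc1, an actin-binding protein gene (129.7, 184 and 183 to 31.7, 31.7 and 25.1 CPM), Rgs2, a brake on G protein signalling (63.5, 57.8 and 62.4 to 19.9, 17.9 and 15 CPM), and Usp2, a deubiquitinase with circadian expression (8.57, 10.3 and 12.6 to 2.42, 1.99 and 2.13 CPM). Dll1, a Notch ligand, had 39 counts in the controls together and 3 with Pg (ratio 11.3, 95% counting interval 3.59 to 57.2), whereas the Notch ligand Jag1 rose by 1.55 and Notch1 by 0.65.

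Several programmes moved little. None of 13 mitochondrially encoded genes passed edgeR's test, with a median of 0.21, 2 at an unadjusted p under 0.05 and 0 passing by DESeq2. Of all 13800 genes, 5869 had an unadjusted p under 0.05 in the same edgeR test. Of 39 cell cycle and replication genes 3 rose and 2 fell (median 0.09), or 2 and 4 with library size scaling. Among 31 cholesterol synthesis and LXR genes 2 rose and 2 fell (median -0.02), or 2 and 7 with that scaling, and Abca1, the cholesterol exporter, was a member that rose (0.51). Of 19 complement genes 3 rose and 1 fell (median -0.01), or 1 and 7. The C1q genes C1qa, C1qb and C1qc, among the most abundant, changed by -0.16, -0.01 and -0.01 and did not pass. Ribosome biogenesis genes were called about as often as all genes, with 6 rises and 10 falls of 46 (median -0.05), or 2 and 23 with library size scaling. Lyz2 held 8746, 10000.0 and 10550.0 CPM in controls and 9457, 9992 and 10980.0 CPM with Pg (0.05 ± 0.09, adjusted p 0.696).

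**Figure D4:**
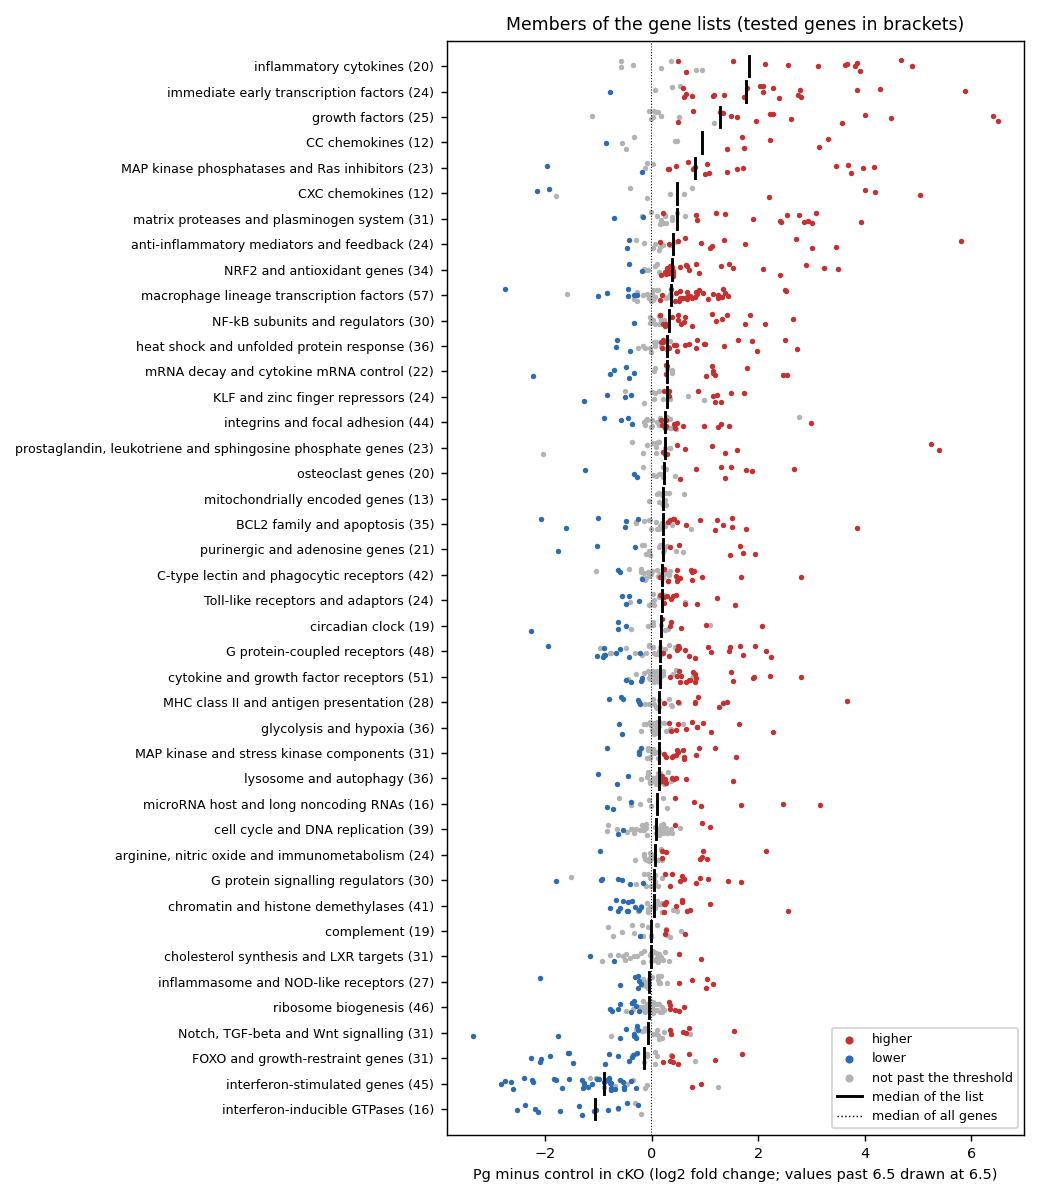
Log2 fold change of Pg against control in cKO for the tested members of 42 gene lists, 1 point a gene coloured by call, with the list's median as a bar and the median of all genes dotted. Inflammatory cytokines (median 1.83) and immediate early factors (1.77) lie at the top, and interferon-stimulated genes (-0.89) and interferon-inducible GTPases (-1.06) at the bottom.

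Long noncoding RNAs made up 6.64% of the genes tested, 14.2% of those that rose and 13.6% of those that fell by 4-fold or more. Among changes under 2-fold they were scarcer, at 2.29% of the rises and 2.34% of the falls, against 7.49% of the genes not called. Their larger share thus held only among called changes of 2-fold or more. A gene of few counts needs a larger change to pass, and the part of level in these shares was not tested. Mir155hg, the host of the microRNA miR-155, rose from 24.5, 18.8 and 18.9 to 106, 106 and 129.5 CPM (2.46 ± 0.12), and Mir22hg from 69.4, 71.8 and 73.5 to 214, 225 and 251 CPM (1.68 ± 0.07). Neat1, the scaffold of nuclear paraspeckles, rose by 0.44. Of the 10 named long noncoding RNAs with the largest rises, 6 overlapped a tested protein-coding gene on the other strand, and in all 6 a partner had risen too, such as Il1a beside Gm14023 (3.13) and Gclm beside Gm17494 (3.02). Of the 10 with the largest falls, 7 overlapped one and 3 of those partners had fallen, while Kdm7a rose (1.1) beside 4930599N23Rik (-1.36). The strand setting of the counting is not given in the sources used here, so these antisense values cannot be told apart from reads of their partners. The same holds for Mrnip (3.79), which overlaps Sqstm1 on the other strand. Eid3 (4.16) lies within Txnrd1 on the same strand, where no strand setting would separate their reads.

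The response of cKO cells was set against that of cHet cells by an interaction test, the change in cKO minus the change in cHet, which shares the cKO libraries with the comparison above. Of 13800 genes, 99 passed (0.717%), 63 with a higher (0.457%) and 36 with a lower change (0.261%) in cKO. The counts rest on few libraries: with 1 left out they ran from 29 to 118 and from 13 to 89, the highest without cKO Pg library 3, an Itgax-low library. They were 425 and 360 with the term for the Itgax state, 210 and 179 without a low-count filter, and 146 and 113 with DESeq2. Stromal marker sums, given above for cKO, lay between 35.8 and 48.3 CPM in cHet, and their part in the difference was not tested. Of the 63, 52 were lower in cKO than in cHet controls (3.02% of all genes were). With Pg 8 of them were higher in cKO (0.652% of all genes were) and the other 55 did not pass. The controls enter both the interaction and that count, so they are tied by construction. Dusp1 shows the pattern: 245, 217 and 217 CPM in cHet controls, 1385, 1323 and 1320.0 CPM in cHet with Pg, 104, 91.7 and 83.5 CPM in cKO controls and 1094, 1227 and 1276 CPM in cKO with Pg, with an interaction of 1.12 ± 0.11 (adjusted p 0.00028). The genotypes differed without Pg and came close with it (-0.16 ± 0.08, adjusted p 0.428).

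Other feedback and early genes with a larger rise in cKO had the same order. Zfp36 held 387, 433 and 453 CPM in cHet controls against 228, 266 and 252 CPM in cKO controls, and 1418, 1421 and 1562 against 1476, 1409 and 1469 CPM with Pg (interaction 0.76 ± 0.10). Il1b held 167, 192 and 192 CPM in cHet controls against 112, 138 and 120.4 CPM in cKO controls, and 1421, 1554 and 1479 against 1411, 1506 and 1657 CPM with Pg (interaction 0.61 ± 0.12). In both genes the control groups did not overlap and the Pg groups did. Tnfaip3, Tnfsf9, Dusp5, Dusp8, Csrnp1, Junb, Ier3 and Ppp1r15a had interactions of 0.52, 0.79, 0.99, 1.41, 1.24, 0.60, 0.96 and 1.16. The calls of Il1b, Tnfaip3, Csrnp1, Dusp8 and Ppp1r15a were among those lost when a single library was left out, cKO control 3 in each case among others.

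Interferon genes fell further in cKO than in cHet for a few members that passed. Irgm2 held 54.6, 42.2 and 44.3 CPM in cHet controls and 23.4, 24.4 and 27.5 CPM with Pg, against 89.8, 59.1 and 71.7 CPM in cKO controls and 13.7, 13.9 and 14.9 CPM in cKO with Pg (interaction -1.47 ± 0.20, adjusted p 0.00625). The cKO libraries were higher than the cHet libraries without Pg and lower with it. Parp14 held 525, 451 and 488 CPM in cHet controls and 423, 460.0 and 443 CPM with Pg, against 740.1, 580.0 and 653 CPM in cKO controls and 317, 327 and 349 CPM in cKO with Pg (interaction -0.85 ± 0.12). Dtx3l and Trim21 had interactions of -0.82 and -0.76. Apart from these, the poly(A) polymerase gene Tent5a had -1.01 and Rnf31 -0.73. Rnf31 overlaps Irf9 on the same strand (4921 and 7160 counts in the cKO libraries), so their reads are not fully separate. The 2 genotypes' responses have separate libraries. Of the 45 interferon-stimulated genes 34 fell in cKO and 18 in cHet (medians -0.89 and -0.29), and of the 16 GTPases 13 and 7 (medians -1.06 and -0.39). In the interaction test 3 of the 45 were lower and 1, Irf1, higher, and 1 of the 16 was lower. Of all genes 0.261% were lower and 0.457% higher in that test. The difference between the list counts was not tested.

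Some genes answered in opposite directions. Nos2 rose in cHet from 3.51, 3.20 and 3.11 to 13.1, 5.07 and 10.4 CPM (1.54) and fell in cKO (-0.97), with an interaction of -2.50 ± 0.43 (adjusted p 0.0116). The interaction was lost without cKO Pg library 2 (-2.45). In all, 14 genes were called in opposite directions. Myo10, an unconventional myosin gene, and Col18a1, a basement membrane collagen gene, rose in cHet (0.29 and 0.65) and fell in cKO (-0.56 and -0.38). The fall of Col18a1 was lost without cKO control 2 or 3 or Pg library 1 or 2 (-0.4 to -0.23). Tet3, a DNA demethylase gene, and Rhobtb1 fell in cHet (-0.27 and -0.25) and rose in cKO (0.27 and 0.46), the rise of Tet3 no longer passing with library size scaling (0.02).

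**Figure D5:**
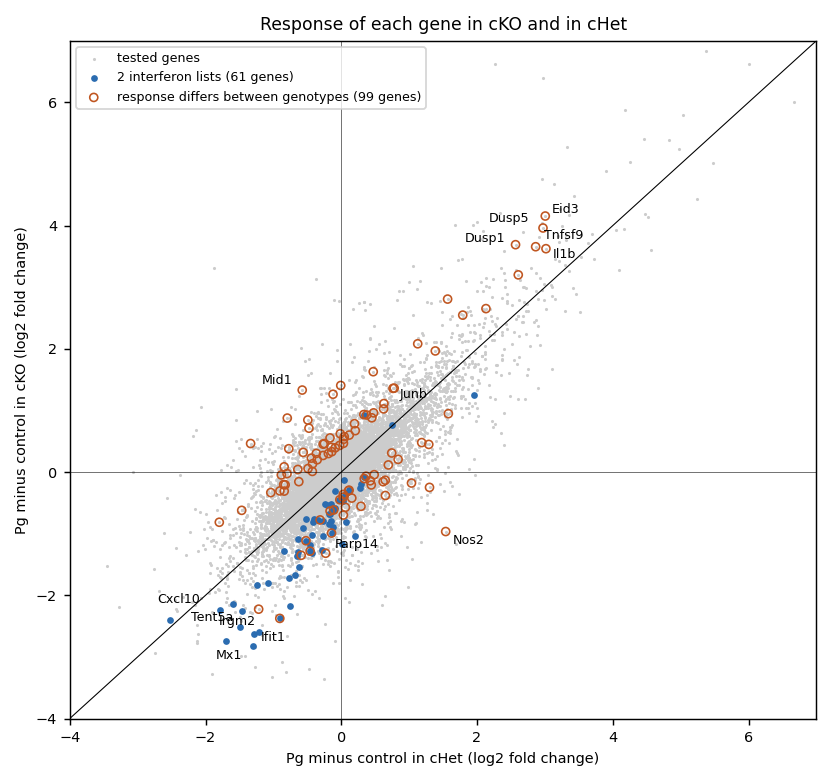
Log2 fold change of Pg against control in cKO (vertical) and in cHet (horizontal), 1 point a gene, with 61 genes of the 2 interferon lists in blue, genes past the interaction test circled and the line of equal change. Csf3 and 2 genes with few counts lie outside the axes. Most circled genes in the upper right lie above the line, the interferon genes lie mainly below it, and Nos2 lies in the quadrant of a rise in cHet and a fall in cKO.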

How the data were processed

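Total RNA of bone marrow-derived macrophages was sequenced in 12 libraries, 3 for each of 4 groups. The authors deposited raw counts per gene in 1 table. The submitters' processing notes name fastp, HISAT2 2.0.5, featureCounts 1.5.0-p3 and the mouse build mm10. Strand setting, annotation release and handling of multi-mapping reads: not given in the sources used here.

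Counts were analysed with R 4.3.3 and edgeR 4.0.16. Genes passing filterByExpr were scaled by TMM, and a quasi-likelihood model with 1 mean per group was fitted over all 12 libraries. Calls are genes under 0.05 after Benjamini-Hochberg adjustment across the 13800. The standard error is the log2 change divided by the square root of F. Levels in CPM, reads scaled to a common total after TMM, were computed here from the deposited counts. The model was tested on simulated data. Totals of 14527674 to 16793803 counts set the precision, and counting intervals cover counting error only.

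Named genes were Itga9 and Lyz2, the 25 largest rises and falls without overlap, the 20 largest by CPM, 10 long noncoding RNAs each way, up to 8 per list, the 15 largest interactions of each sign and genes called in opposite directions. Genes outside this rule are named as such where they appear, apart from Maff, chosen after its value was seen. The members and lists were chosen with earlier results of these data known. Alternatives were DESeq2 1.42.0, other scalings and filters, a replicate block, the cKO libraries alone, a 1.5-fold test, each library left out, and, chosen after seeing the data, a term for or a split by Itgax level.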

Additional observations from a re-analysis of the deposited data

Results flagged for a closer look

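The genes named in the report that passed the interaction test, the change with Pg in cKO minus that in cHet on the log2 scale, are given here because the same contrast differed between the genotypes. Each passed edgeR's quasi-likelihood test with Benjamini-Hochberg adjustment over all genes.

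A larger rise or smaller fall in cKO was found for 3 of 23 phosphatase and Ras inhibitor genes and 2 of 22 mRNA decay genes (another, Tent5a, went the other way). Of all genes 0.457% passed with a higher change and 0.261% with a lower one. Interactions were 1.12 for Dusp1, 0.99 for Dusp5, 1.41 for Dusp8, 0.76 for Zfp36 and 0.40 for Zc3h12c. Other members with a higher value were Junb with 0.60, Csrnp1 with 1.24, Irf1 with 0.60, Ier3 with 0.96, Ppp1r15a with 1.16 and Tnfaip3 with 0.52. Among cytokine genes Il1b had 0.61 and Tnfsf9 0.79. Tet3 had 0.54, Rhobtb1 0.71 and Eid3, which lies within Txnrd1, 1.15.

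A larger fall or smaller rise in cKO was found for 3 of 45 interferon-stimulated genes, with 1 higher, and for 1 of 16 GTPases. Of all genes 0.261% passed with a lower change and 0.457% with a higher one. Values were -1.47 for Irgm2, -0.85 for Parp14, -0.59 for Parp9, -0.82 for Dtx3l and -0.76 for Trim21, not all of them members of these 2 lists. Dtx3l and Parp9 overlap on the genome, so their reads are not fully separate. Other genes were Nos2 with -2.50, Col18a1 with -1.03, Tent5a with -1.01, Myo10 with -0.85 and Rnf31, which overlaps Irf9 on the same strand, with -0.73.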

How the results depend on the processing

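The cKO counts of 2328 rises and 2359 falls were 609 and 329 in a test against 1.5-fold (268 falls of at least 2-fold) and 1229 and 5343 with library size scaling (963 falls of at least 2-fold). With that scaling 17 lists held more rises than falls, against 33. DESeq2 gave 2393 and 2208, and leaving out 1 library 1914 to 2273 rises and 1924 to 2187 falls. The interaction counts of 63 and 36 became 210 and 179 without a low-count filter, 146 and 113 with DESeq2, 425 and 360 with the Itgax term, and 29 to 118 and 13 to 89 with 1 library left out. They moved by over 1.5 times without cKO control 3, any cKO Pg library, any cHet control, or cHet Pg library 2 or 3. Split at 2-fold, the rises held TATTTAT in 41.9% and AP-1 in 13.6%, with a span of 18.7 kb. Fos changed by -0.45 in the Itgax-low libraries alone. The cause of these shifts was not tested. Whether replicate numbers pair the samples is not known. Within cKO the deviations of same-numbered libraries correlated at 0.151, -0.048 and 0.141, and those of different numbers at -0.212 to 0.107. With 3 libraries a group these values cannot settle it. With the replicate block the cKO counts were 2077 and 2058 and the interaction counts 39 and 18. Depth limits genes of few counts, such as Csf2.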
